A study of Mus musculus with 24 samples.

Results

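The genes described here encode the proteins of the cytosolic ribosome. They were taken by symbol: every gene whose symbol on the array platform begins with Rpl or Rps followed by a digit, together with Rplp0, Rplp1, Rplp2 and Rpsa, leaving out the Rps6 kinases and annotated pseudogenes. The choice used no measured difference, and each gene was read from its single-symbol probe set of highest mean intensity. In all, 63 of the 19938 genes measured met this rule, 38 with large subunit symbols and 25 with small subunit symbols. Of these, 60 (35 large, 25 small) had a mean at or above log2 5.52, the 30th percentile of all genes, and were tested among 13956 genes. The other 3 were Rpl3l, Rpl10l and Rpl39l, paralogues known from muscle or testis, with means of 4.55, 4.39 and 3.66. The member just above the limit was Rps23rg1, a retrogene of a small subunit protein, at 6.11, followed by Rpl12 at 6.26. A further 20 symbols of the family, among them Rpl3, Rpl11, Rpl13a, Rps16 and Rps24, were only on probe sets that carry several symbols and were not analysed here. The symbol rule also takes in genes that are not core ribosomal proteins, such as Rps19bp1, which encodes a protein that binds a ribosomal protein.

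The tissue was the suprachiasmatic nucleus (SCN), the paired nucleus of the hypothalamus that holds the master circadian clock of mammals. C57/BL6 mice were kept on 12 h of light and 12 h of darkness for 3 weeks and then moved to constant darkness, and tissue was taken at 2-h steps, the earliest at circadian time (CT) 18 and the latest at CT 64. Each of the 24 times had 1 Affymetrix MoGene 1.0 ST array, hybridised with RNA pooled in equal amounts from 3 mice. The arrays up to CT 40 form the first cycle and those from CT 42 on the second, with 12 arrays and the same 12 circadian times in each. There were no replicates at any time, so the error behind every test was the spread of the arrays around the fitted curve. A pool does not show the spread between mice, and in bulk tissue fewer cells of a type and less RNA per cell cannot be told apart.

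A ribosome joins a large subunit, which forms peptide bonds, to a small subunit, which reads the messenger RNA, and its proteins are needed in matched amounts. Most of their messenger RNAs begin with a C followed by an unbroken run of pyrimidines, the terminal oligopyrimidine tract, through which the kinase complex mTORC1 controls how many of them are translated. In liver, this control and the production of ribosomal proteins are known to follow the daily cycle, so much of the known regulation lies in translation, which arrays of total RNA do not measure.

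The start regions of some members are shown because that tract lies there and because the results below turn on most of these genes. The sequences are from RefSeq on GRCm38.p6, run 5′ to 3′ on the strand of the gene, and cover 25 bases before the annotated start and the first 25 bases from it. Capitals mark the longest unbroken run of C and T in the window, or the first of them where runs tie, as in Rps27l. The run may lie on either side of the annotated start, so it need not be that tract. In Rps27l, Rpl5 and Rps3a1 it began at -22, -20 and -18 from the annotated start and ended before that start. Rps27l, Rps12 and Rps3a1 are small subunit genes near the top of the rhythm test. Rps14, also near the top, had no start region among those used. Rpl27a, Rpl7a and Rpl28 carry long runs, and Rpl27 varied least of all tested genes. By the probe sets chosen, Rplp0 and Rpl5 were furthest below their usual level at CT 40.
Rps27l (chr9:66946061-66946110, plus strand): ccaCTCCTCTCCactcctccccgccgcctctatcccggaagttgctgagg
Rps12 (chr10:23787185-23787234, minus strand): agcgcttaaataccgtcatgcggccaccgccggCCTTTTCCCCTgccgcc
Rps3a1 (chr3:86142644-86142693, minus strand): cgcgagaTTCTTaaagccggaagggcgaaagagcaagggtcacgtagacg
Rpl27a (chr7:109519170-109519219, plus strand): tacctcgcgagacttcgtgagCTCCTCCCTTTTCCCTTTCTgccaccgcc
Rpl7a (chr2:26910782-26910831, plus strand): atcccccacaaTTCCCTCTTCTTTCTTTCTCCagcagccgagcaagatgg
Rpl28 (chr7:4792940-4792989, plus strand): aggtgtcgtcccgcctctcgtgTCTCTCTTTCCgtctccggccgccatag
Rpl27 (chr11:101442220-101442269, plus strand): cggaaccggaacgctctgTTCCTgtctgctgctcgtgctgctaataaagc
Rplp0 (chr5:115559442-115559491, plus strand): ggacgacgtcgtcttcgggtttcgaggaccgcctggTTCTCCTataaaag
Rpl5 (chr5:107900503-107900552, plus strand): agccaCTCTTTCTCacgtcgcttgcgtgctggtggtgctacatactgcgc
The run reached 21 bases in Rpl7a and 20 in Rpl27a, and in Rpl27 it had 5. Start regions were matched by symbol and used for 51 of the 63 members (30 large, 21 small), out of 27025 genes in the table. Members on a single chromosome were left out of these, while the shares of all genes include that chromosome. Wherever it lay in the window, the longest run had a median of 7 bases in members and 5 in all genes. It reached 8 bases or more in 21 members (41.2%) against 19.4% of all genes. The letters CGGAAG, the core bound by ETS family factors, were searched on both strands over 300 bases (250 before the start and 50 from it). They were found in 34 members (66.7%), in 17 of 30 large subunit genes (56.7%) and 17 of 21 small subunit genes (81.0%), against 17.2% of all genes. On the opposite strand this motif reads CTTCCG, so it can overlap a run of C and T. The letters CTTTCC on the gene's own strand, within the 50 bases of the window, were in 5 members (9.8%) against 2.4% of all genes. The letters TATAAA in the gene strand's 50 bases before the start were in 0 members, against 2.9% of all genes. Bases after the annotated start were not searched for them, and there they occur in Rplp0, as printed above, and in Rpl36a and Rps2. A match says only that the letters are there.

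Depth on an array is its signal, and 1 array stood apart on several measures. At CT 40 the median correlation with the other arrays was 0.970, against 0.987 to 0.991 for the other 23. Its interquartile range was 2.48, against 2.65 to 2.90. The mean of 1196 olfactory and vomeronasal receptor genes, used here as a measure of array background because the SCN is not known to express most of them, was 0.34 above its mean over arrays at CT 40. The next highest were CT 62 at 0.19 and CT 64 at 0.16, and the lowest was CT 20 at -0.15. All 9 of 9 SCN markers, Avp and Vip among them, were above the limit on low values, and their mean level relative to all arrays ranged from -0.65 at CT 64 to 0.40 at CT 32, with -0.36 at CT 40. Of these 9, 5 were themselves called in the 24-h rhythm test described below, where 7.65% of all tested genes were. CT 40 and CT 64 fall at the same circadian time. Against the median of the other arrays, CT 40 was -0.32 in Avp, 0.13 in Vip, -0.89 in Rgs16, 0.09 in Lhx1 and -0.19 in Six6. It was -0.96 in Rora, -0.66 in Nms, -0.06 in Prok2 and -0.23 in Gad1. The mean level of the 5 oligodendrocyte markers measured was lowest at CT 40 (-0.80, highest 0.44 at CT 20), as was that of the 4 astrocyte markers (-0.42, highest 0.32 at CT 20). That of the 6 pituitary markers was highest at CT 20 (2.49) and was -0.26 at CT 40. The part of these in the members' values at CT 40 was not tested. Results that rest on CT 40 are therefore given with and without it.

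Ribosomal protein genes varied less than most tested genes once the array at CT 40 was set aside. Without the array at CT 40, the median standard deviation (SD) over 23 arrays was 0.08 on the log2 scale in members, 0.08 in the large and 0.08 in the small subunit, against 0.12 over all tested genes. With CT 40 counted the medians were 0.11 in members, 0.12 in the large and 0.10 in the small subunit, against 0.13. Among the 184 tested genes with a mean of 11 or more were 41 members, with a median SD without CT 40 of 0.06, against 0.09 in the other 143. Over 24 arrays these were 0.09 and 0.12. Among the 1396 genes of lowest SD were 35 of the 60 members, or 25 when CT 40 was counted. Of the 100 lowest, 12 were members without CT 40 (7 large, 5 small) and 11 with it. These are descriptions, since an SD on an array also depends on how bright the probe set is.

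Rpl27, a large subunit protein, had the lowest SD of all 13956 tested genes, 0.03 with or without CT 40. In the first cycle it lay at 11.80, 11.86 and 11.92 (lowest, median, highest) and in the second at 11.80, 11.85 and 11.95. The 2 cycles overlapped throughout, and CT 40 (11.92) lay within the range of the other arrays. Rpl23a, another large subunit protein, ranked 2 without CT 40 and 646 with it, and Rps4x, an X-linked small subunit protein, ranked 6 and 4188. In the small subunit the lowest SD over 24 arrays was that of Rps13 (0.06), at 11.58, 11.67 and 11.76 in the first cycle and 11.66, 11.72 and 11.84 in the second. The highest SD in the small subunit was that of Rps23rg1 (0.22), which had 5.76, 6.04 and 6.62 in the first cycle and 5.91, 6.12 and 6.34 in the second and lay close to the limit on low values. The highest over 24 arrays in the large subunit was that of Rplp0 (0.45), described next. Without CT 40 it was 0.14, and Rpl12 was then highest in the large subunit (0.19).

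At CT 40 many members were far below their level on every other array. Against the median of the other 23 arrays, 22 of 60 members were lower by more than 0.5 on the log2 scale, where 11.8% of all tested genes were. These were 15 of 35 large subunit genes (42.9%) and 7 of 25 small subunit genes (28%). No member was higher by more than 0.5 (0 of 60), where 3.03% of all tested genes were. On each of the other 23 arrays 0 members were lower by more than 0.5 and at most 1 was higher. The value at CT 40 lay below all other arrays in 30 members (20 large, 10 small), against 29.6% of all tested genes, and above all others in 4 (1 large, 3 small), against 15.6%. The median difference was -0.27 in the large subunit, -0.10 in the small subunit and -0.06 over all tested genes, while over the 143 other genes with a mean of 11 or more it was -0.30, against -0.13 in the 41 members among those bright genes. Members just inside the limit of 0.5 were Rplp2 at -0.51 and Rpl12 at -0.53, and the first outside it was Rpl4 at -0.45. With 1 array at CT 40 there is no test of this difference, and the members named for it were chosen after their values were seen.

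**Figure D1:**
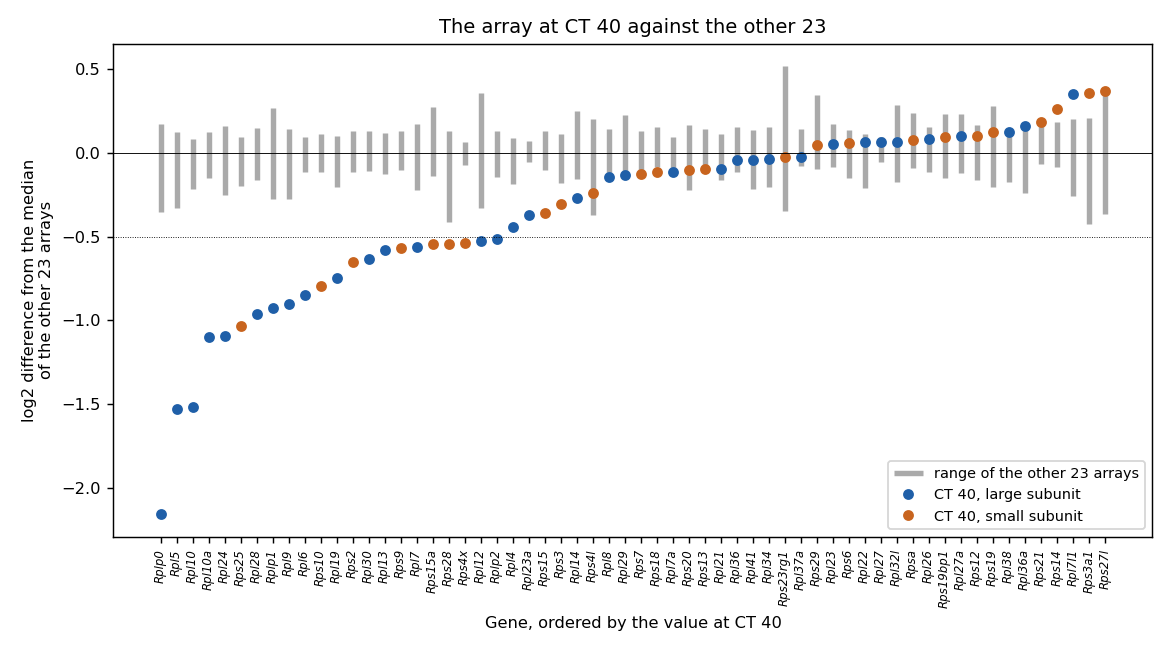
Each of the 60 tested ribosomal protein genes by its log2 difference at CT 40 from the median of the other 23 arrays (points, blue for the large and orange for the small subunit), with the range of the other 23 arrays as a grey bar. The points run from -2.16 in Rplp0 to 0.37 in Rps27l, 22 lie below the dotted line at -0.5, and 30 lie below their grey bar.

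Rplp0 is the base of the stalk of the large subunit that recruits the factors of elongation, and a reference gene in many quantitative PCR assays. It read 8.87 at CT 40, a difference of -2.16 from the median of the other arrays, which ran from 10.67 to 11.20. In the first cycle its lowest, median and highest values were 8.87, 10.92 and 11.13, and without CT 40 the lowest was 10.67. In the second cycle they were 10.77, 11.03 and 11.20, so the cycles overlapped apart from that array. Rplp1 and Rplp2, the acidic proteins that bind to Rplp0 in the same stalk, read 11.59 and 7.79 at CT 40, differences of -0.93 and -0.51, each below all 23 other arrays.

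Rpl5, which carries the small ribosomal RNA of the large subunit into the assembling particle and binds Mdm2 when free, read 9.34 at CT 40. Its other first-cycle arrays ran from 10.57 to 10.92, and its second-cycle arrays from 10.53 to 10.99. Rpl10, a protein added late that the large subunit needs before it can join the small one, read 10.67 at CT 40, and its other arrays ran from 11.97 to 12.27. Both genes were lowest at CT 40, and Rpl5 was also low at CT 36 (10.57), CT 38 (10.66) and CT 62 (10.53). Without CT 40 the SD of Rpl5 was 0.12 and that of Rpl10 was 0.09. Rpl10a (10.76 at CT 40, 11.71 to 11.98 elsewhere) forms the other stalk of the large subunit, and Rpl24 (10.71, 11.55 to 11.96 elsewhere) lies at the interface with the small subunit. Among small subunit genes the largest difference was that of Rps25, which read 11.16 at CT 40 and 12.00 to 12.29 elsewhere.

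Other members were not lower at CT 40. Rps27l, Rps3a1 and Rps14 of the small subunit were 0.37, 0.35 and 0.26 above the median of the other arrays at CT 40, and Rpl7l1, a relative of Rpl7, was 0.35 above. For Rps27l the value (9.52) lay within the range of the other arrays, since CT 62 read 9.55. Rps3a1 (11.20), Rps14 (12.73) and Rpl7l1 (7.47) each had their highest value of all 24 arrays there. CT 64, at the same circadian time 24 h later, had no member beyond 0.5 in either direction, and its median difference in members was 0.05. Array background was highest and array spread smallest at CT 40, and their part in these differences was not tested beyond quantile normalization, which left 14 members lower and 2 higher by more than 0.5.

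Probe sets of 1 gene did not always go the same way at CT 40. Ribosomal protein genes have many processed pseudogenes of near-identical sequence, so their probe sets can share signal, and the positions of the probes were not used here. The members had 219 probe sets in all, and 39 members had more than 1. Of the 156 probe sets not chosen, 8 were identical to the chosen one. Over the rest, the median correlation with the chosen probe set over 24 arrays was 0.94, and 0.91 without CT 40. In 17 members the probe sets spanned more than 0.5 at CT 40. In Rpl10 the 6 probe sets lay from -2.13 to -0.26, and in Rpl5 the 5 lay from -1.53, the chosen one, to -0.49. In Rps14 the chosen probe set was at 0.26 and the other at -1.18, and in Rpsa, the laminin receptor of the small subunit, the 5 probe sets ran from -1.15 to 0.08. Rpl27 itself ran from -0.87 to 0.20 over 4 probe sets, so its small spread holds for the chosen probe set. In Rpl10a, Rpl38 and Rps29 all 4 probe sets lay within 0.04, 0.03 and 0.03 of each other.

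**Figure D2:**
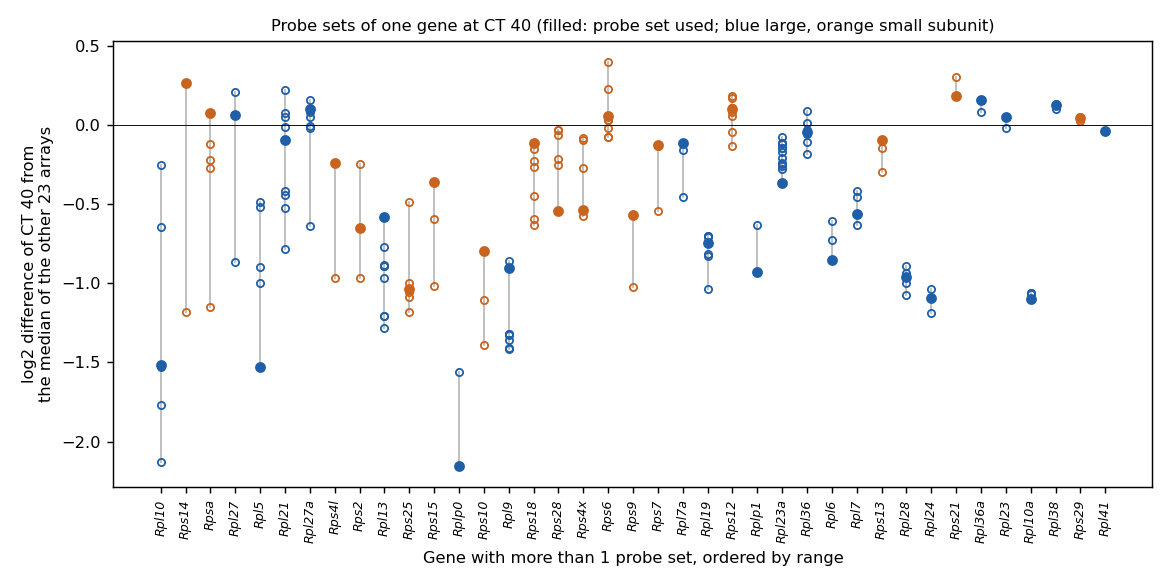
Log2 difference at CT 40 from the median of the other 23 arrays for every probe set of the 39 members with more than 1 probe set (filled points, probe set used; open points, other probe sets; blue, large subunit; orange, small subunit), ordered by the range within the gene. The range is 1.87 in Rpl10, 1.44 in Rps14 and 1.23 in Rpsa, and it is over 0.5 in 17 genes.

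The 2 subunit means were compared next. The mean of the large subunit genes, each centred on its mean over the 24 arrays, lay between -0.06 (CT 38) and 0.08 (CT 60), apart from -0.41 at CT 40. The small subunit mean lay between -0.08 (CT 28) and 0.12 (CT 60), apart from -0.17 at CT 40. Both subunits were thus highest at CT 60, where 22 members had their highest value, and both were lowest at CT 40. The share of all tested genes with their highest value at CT 60 was not counted, and CT 60 is a single array. The large subunit minus the small was -0.25 at CT 40 and between -0.06 (CT 38) and 0.06 (CT 48) on the other arrays, so the 2 subunit means stayed close except there. The zero of these differences moves with CT 40, so they were also centred on the other 23 arrays. Centred that way, the difference lay between -0.07 (CT 38) and 0.05 (CT 48) and was -0.26 at CT 40. At the 11 circadian times with an array in each cycle apart from CT 40, it was above 0 in both cycles at 3 (circadian times 20, 22 and 4), below 0 in both at 3 (10, 12 and 14) and of opposite sign at 5. The lowest values were at circadian time 14 (-0.07 and -0.06) and 12 (-0.05 and -0.05). Taken between subunit medians centred over 24 arrays, the difference was -0.05 and -0.03 at circadian time 14. At circadian time 12 it was then 0.001 and -0.05, so the agreement there rests on the use of means. With CT 40 in the centring the counts over 12 times were 6, 2 and 4, so the sign at several times rests on the centring. No test was made of these differences.

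**Figure D3:**
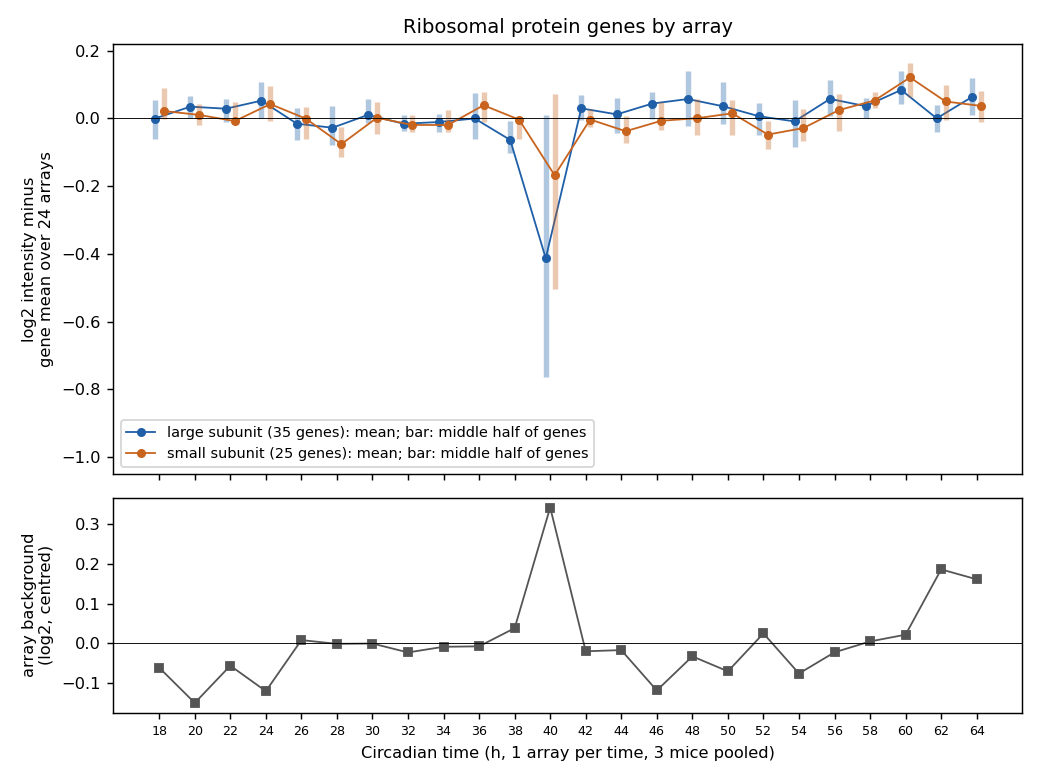
Upper panel: mean log2 intensity, centred per gene, of the 35 large (blue) and 25 small (orange) subunit genes on each of the 24 arrays, with bars from the lower to the upper quartile of the genes. Lower panel: array background, the centred mean of 1196 olfactory and vomeronasal receptor genes. At CT 40 the subunit means are -0.41 and -0.17 and the background is 0.34.

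The members' levels also varied together from array to array, as a description over arrays that share their processing. The correlation of each member with the mean of the other members had a median of 0.54 over 24 arrays and 0.40 without CT 40 (0.36 large, 0.42 small). Over all tested genes the median correlation with the members' mean was 0.09, and -0.02 without CT 40. With CT 40 counted, 16 members had a correlation below 0, lowest in Rpl7l1 (-0.45), and without it only Rps23rg1 (-0.12) and Rpl14 (-0.02) did.

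The first tested comparison asked which members followed the circadian cycle. A curve of 24 h was fitted to each gene over the 24 arrays, its amplitude being the distance from mean to peak on the log2 scale, and limma's moderated F test gave p-values adjusted by Benjamini-Hochberg over all 13956 genes. The test called 1 of 60 members, Rps27l, where 7.65% of all tested genes were called. It called 0 of 35 large and 1 of 25 small subunit genes. At an unadjusted p below 0.05 there were 9 members (15%), 2 large (5.71%) and 7 small (28%), against 27.5% of all tested genes. Without CT 40 the counts were 1 called (background 7.89%) and 9 unadjusted (3 large, 6 small, background 26.6%). The difference between the subunits in these counts was not tested.

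Rps27l is a paralogue of the small subunit protein Rps27, and its transcription is known to be raised by p53. In the first cycle its lowest value was 8.79 (CT 28), its median 9.17 and its highest 9.52 (CT 40). In the second cycle these were 8.96 (CT 52), 9.18 and 9.55 (CT 62). The cycles overlapped over nearly their whole range. At circadian times 12, 14 and 16 the arrays read 9.41, 9.16 and 9.52 in the first cycle and 9.34, 9.55 and 9.35 in the second. At circadian times 4 and 6 they read 8.79 and 8.97, then 8.96 and 9.13. Each of the 6 evening values lay above each of these 4. The times compared were picked with the values known, so this separation is not a test of the rhythm. The array at CT 26 (9.37) was not among the arrays compared. It lay above the evening values of 9.16, 9.34 and 9.35 and below those of 9.41, 9.52 and 9.55. The fitted amplitude was 0.20 ± 0.04 (SE), a 1.31-fold difference from trough to peak, with the peak at circadian time 15.2 ± 0.76 h (adjusted p = 0.0102). Leaving out CT 40 gave an amplitude of 0.18 ± 0.04 (adjusted p = 0.0151). Array background was highest at CT 40, CT 62 and CT 64, all near that peak, and without those 3 arrays the amplitude was 0.16 and the gene was no longer called (adjusted p = 0.0714). With array background in the fit it was also 0.16 and not called (adjusted p = 0.0574).

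The next small subunit genes had peaks at similar times but did not pass the threshold, and they are named after their values were seen. Rps14, a protein of the platform of the small subunit, peaked in the fit at 15.3 h, and its amplitude was 0.09 ± 0.03 (adjusted p = 0.0622). Its values were 12.42, 12.49 and 12.73 in the first cycle and 12.38, 12.43 and 12.60 in the second, and the high arrays were CT 40, CT 36 and CT 20. The other probe set of Rps14 had a correlation of -0.36 with the chosen one, and 0.40 without CT 40. The fit for Rps14 thus holds for the chosen probe set. Rps12 had 0.08 ± 0.02 at 15.3 h (adjusted p = 0.0734), with values of 12.27, 12.38 and 12.47 and then 12.21, 12.34 and 12.54, highest at CT 60. Rps3a1 had 0.12 ± 0.04 at 16.4 h (adjusted p = 0.0734), with values of 10.66, 10.84 and 11.20 and then 10.42, 10.88 and 11.06. In each of the 3 the cycles overlapped. When CT 40 was left out, the adjusted p was 0.0987 for Rps14, 0.0866 for Rps12 and 0.137 for Rps3a1.

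In the large subunit no gene passed, and the 3 of smallest p were Rpl9, Rpl27a and Rpl7. Rpl9 had 11.30, 12.15 and 12.34 in the first cycle and 12.01, 12.24 and 12.33 in the second. Its lowest array was CT 40, and its next lowest were CT 38 (11.92) and CT 62 (12.01), both at circadian time 14. Its amplitude was 0.14 ± 0.05 with a peak at 1.27 h (adjusted p = 0.173), and without CT 40 0.10 ± 0.03 at 23.3 h (adjusted p = 0.0751). Rpl27a, whose start region holds a run of 20 C and T bases, had 0.06 ± 0.02 at 13.4 h (adjusted p = 0.178), from 12.39 to 12.74, highest at CT 60. Rpl7 had 0.10 ± 0.04 at 1.68 h (adjusted p = 0.189), with 10.87 at CT 40 and 11.22 to 11.61 on the other arrays. Without CT 40 the large subunit gene of smallest p was Rpl5, with 0.10 ± 0.03 and a peak at 23.98 h (adjusted p = 0.0736). Over 24 arrays the largest amplitude of all members was that of Rplp0, 0.23 ± 0.11 (adjusted p = 0.313), and it was 0.09 ± 0.04 without CT 40 (adjusted p = 0.257).

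**Figure D4:**
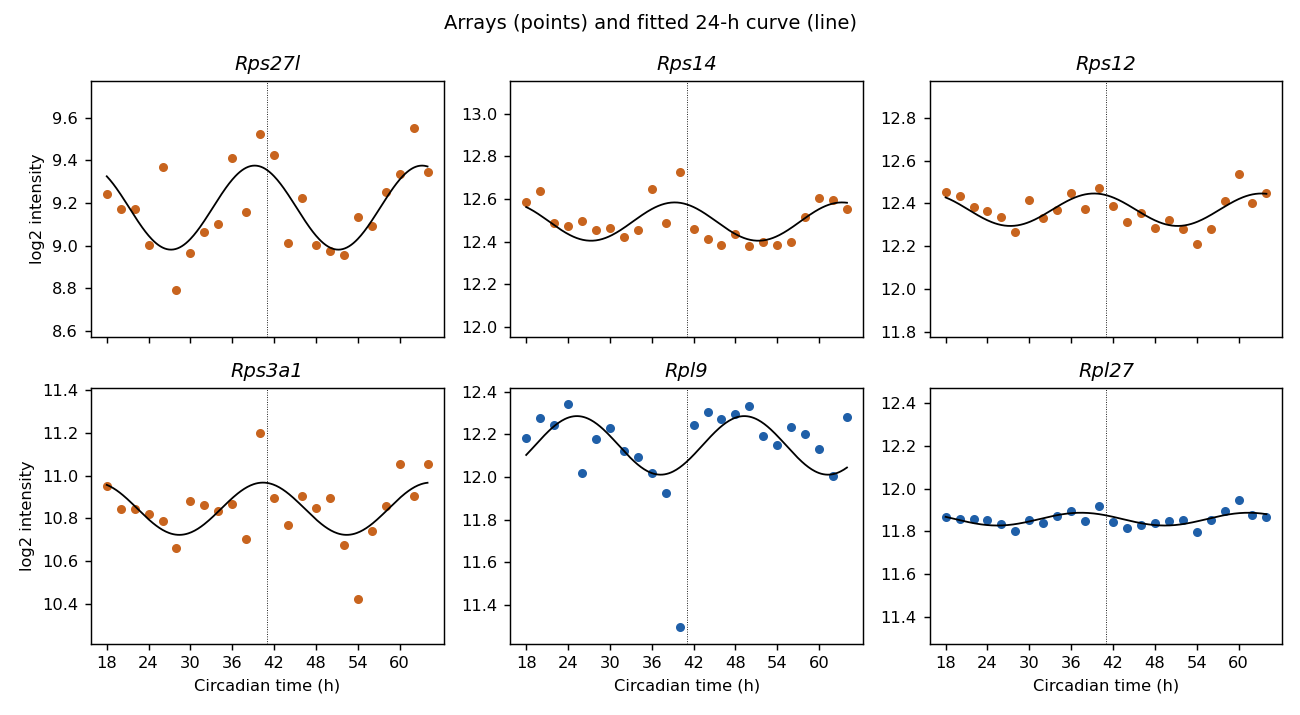
Log2 intensity on each of the 24 arrays (points) against circadian time in h, with the fitted 24-h curve (line), for 4 small subunit genes (orange) and 2 large subunit genes (blue); the dotted line marks the border between the cycles. Rps27l peaks at 15.2 h in the fit, Rpl9 has its single low value at CT 40, and Rpl27 stays between 11.80 and 11.95.

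Over all members the amplitudes were small. Their median was 0.06 (0.05 large, 0.07 small), against 0.07 over all tested genes, and without CT 40 it was 0.04 (0.04 large, 0.05 small), against 0.06. Fitted peaks fell mostly at circadian times 0 to 6 (16 large, 9 small) and 12 to 18 (13 large, 12 small), with 3 large and 3 small at 6 to 12 and 3 large and 1 small at 18 to 24. Without CT 40 the early group held 10 large and 3 small genes and the group at 12 to 18 held 15 large and 12 small. A peak time has little meaning where the amplitude is near its standard error.

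**Figure D5:**
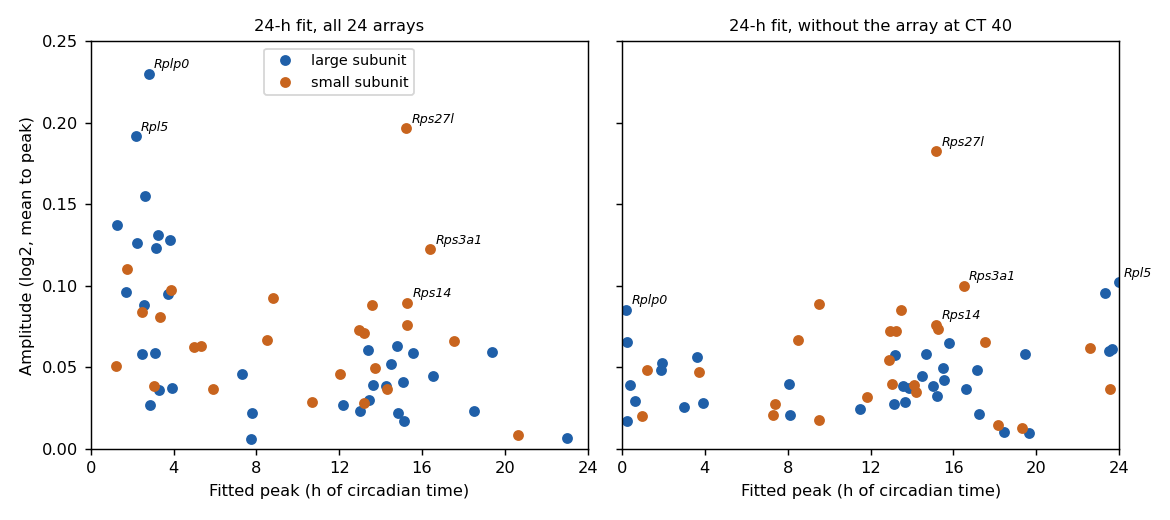
Fitted 24-h amplitude (log2, mean to peak) against fitted peak time (h) for the 60 members, with all 24 arrays (left) and without CT 40 (right), blue for the large and orange for the small subunit. Rplp0 lies at 0.23 on the left and 0.09 on the right, while Rps27l lies at 0.20 and 0.18.

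The second comparison asked whether levels differed between the first and second day in darkness. No member passed (0 of 60 by limma, background 0%), and at an unadjusted p below 0.05 there were 7 (5 large, 2 small; 8.71% of all tested genes). In the large subunit the smallest p-values were those of Rplp1, Rpl7 and Rpl10a. Rplp1 had a mean of 12.37 in the first cycle and 12.56 in the second, a difference of 0.19 ± 0.07 (SE; adjusted p = 0.470). Its first-cycle values were 11.59, 12.45 and 12.59 and its second-cycle values 12.43, 12.55 and 12.78, and they overlapped. Rpl7 differed by 0.13 ± 0.05 (adjusted p = 0.480) and Rpl10a by 0.19 ± 0.08 (adjusted p = 0.504). Without CT 40, which belongs to the first cycle, these 3 differences were 0.12, 0.09 and 0.10, and the adjusted p was 0.369, 0.438 and 0.295. In the small subunit they were Rps28 (0.12 ± 0.05, adjusted p = 0.513), Rps2 (0.11 ± 0.05, adjusted p = 0.566) and Rps14 (-0.07 ± 0.03, adjusted p = 0.588). Without CT 40 they differed by 0.08, 0.06 and -0.06, with adjusted p of 0.564, 0.573 and 0.624. The members at an unadjusted p below 0.05 were then 7 large and 0 small, against 8.96% of all tested genes, and 0 passed the adjusted threshold (background 0%).

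Most members were nevertheless slightly higher on the second day, 28 of 35 large and 16 of 25 small subunit genes, and 28 and 17 without CT 40. The median difference, second minus first cycle, was 0.05 in the large and 0.03 in the small subunit, against 0.00 over all tested genes. Without CT 40 it was 0.03 and 0.02, against -0.003 over all tested genes. Over all tested genes with a mean of 11 or more, members included, it was 0.03, and 0.01 without CT 40. Bright genes as a whole thus shifted the same way. The share of all tested genes that were higher on the second day was not counted. All members were read on the same arrays, so these counts carry no test.

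The shape of the daily curve was then compared between the cycles, and 0 of 60 members passed (limma, background 0%). At an unadjusted p below 0.05 there was 1, Rpl12, a protein at the base of the stalk (2.42% of all tested genes). Its amplitude was 0.14 in the first cycle and 0.14 in the second, with an unadjusted p of 0.0296. Next in the large subunit were Rpl14 (0.08 and 0.06) and Rpl21 (0.02 and 0.07). In the small subunit the smallest p-values were those of Rps19 (0.11 and 0.12), the gene mutated most often in Diamond-Blackfan anaemia, Rps4l (0.01 and 0.18) and Rps28 (0.12 and 0.04). The test covers peak time as well as amplitude, and the adjusted p was 0.9999 for each of these 6. Without CT 40, 1 member had an unadjusted p below 0.05, against 5.62% of all tested genes.

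A cycle of 12 h was fitted beside that of 24 h. It called 0 of 60 members (limma, background 0.0358%), and 2 had an unadjusted p below 0.05, against 21.9% of all tested genes. These were Rpl41, the shortest protein of the ribosome (amplitude 0.06, unadjusted p = 0.0465, adjusted p = 0.223), and Rps19bp1 (0.08, unadjusted p = 0.0186, adjusted p = 0.168). Rpl8 (0.06) and Rpl9 (0.11) came next in the large subunit, and Rpsa (0.06) and Rps20 (0.06) in the small subunit, with adjusted p from 0.237 to 0.309. Without CT 40, 0 members were called (0.0645% of all tested genes) and 4 had an unadjusted p below 0.05, against 18.7%.

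Of the paralogue pairs asked about, 2 had both genes above the limit on low values. Rpl7 and Rpl7l1 had amplitudes of 0.10 ± 0.04 (peak 1.68 h) and 0.06 ± 0.04 (peak 14.8 h), with adjusted p of 0.189 and 0.508, and at CT 40 the first differed from its median by -0.56 and the second by 0.35. Rps4x and Rps4l had amplitudes of 0.04 ± 0.03 and 0.09 ± 0.05 (adjusted p = 0.690 and 0.315) and differed by -0.54 and -0.24 at CT 40. Over all their probe sets that difference ran from -0.58 to -0.08 in Rps4x and from -0.97 to -0.24 in Rps4l. Which of this pair was lower at CT 40 thus rests on the probe sets chosen. The paralogue of Rpl10, Rpl10l, was below the limit on low values and was not tested. The amplitudes without CT 40 were 0.07 in Rpl7, 0.04 in Rpl7l1, 0.01 in Rps4x and 0.09 in Rps4l. Fau, which encodes a small subunit protein fused to a ubiquitin-like part and lies outside the symbol rule, had an amplitude of 0.06 ± 0.04 (adjusted p = 0.461; 0.03 without CT 40) and differed by -0.56 at CT 40, within the range of the members.

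Genes that build and use ribosomes gave 0 to 3 calls in a list, where 7.65% of all tested genes were called. Of 30 translation factors, 3 were called for a 24-h rhythm: Eef1d, a subunit of the exchange factor of elongation (0.11 ± 0.03, peak 14.995 h, adjusted p = 0.0274), Eif4a2, a helicase of initiation (0.16 ± 0.04, 1.67 h, adjusted p = 0.0341), and Eef2, which moves the ribosome along (0.14 ± 0.04, 3.47 h, adjusted p = 0.0490). Without CT 40 again 3 were called, where 7.89% of all tested genes were: Eef2 was not (adjusted p = 0.0768), and Eif3l, of the initiation factor that binds the small subunit, was (0.17, adjusted p = 0.0193). At an unadjusted p below 0.05 there were 11 of the 30, against 27.5% of all tested genes. At CT 40, 12 of the 30 were lower by more than 0.5, against 11.8% of all tested genes. Of 17 genes of the mTORC1 axis only Mtor was called (0.13 ± 0.03, 3.47 h, adjusted p = 0.0316), and without CT 40 it was not (adjusted p = 0.0532), while 5 of the 17 had an unadjusted p below 0.05 and 4 were lower at CT 40. Of 30 ribosome biogenesis genes 0 were called (limma), 7 had an unadjusted p below 0.05 (27.5% of all tested genes) and 1 was lower at CT 40 (11.8%). The 2 of smallest p there were Nhp2, of the pseudouridylation complex (0.22 ± 0.07, adjusted p = 0.0728), and Fbl, the methyltransferase fibrillarin (0.10 ± 0.03, adjusted p = 0.0822). Without CT 40 the amplitude was 0.13 in Nhp2 and 0.09 in Fbl, and the adjusted p was 0.0513 and 0.0963. In the other 3 tests 0 genes of these lists were called.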

How the data were processed

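The files hold log2 intensities per probe set, which the authors made by RMA (version 1.3.1.187) in Affymetrix Expression Console, per the submitters' processing notes. Background and summarisation settings and the genome build were not given in the sources used here, and no further normalization was applied. RMA pulls arrays toward a common distribution, so values are relative to the other genes of an array.

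Of 35556 probe sets, 21789 had 1 symbol in the platform annotation. Each of 19938 genes took its probe set of highest mean, and 13956 at or above the 30th percentile were fitted in limma 3.58.1 (R 4.3.3). Cosine and sine terms of 24 h, a cycle term, their interaction and 12-h terms were tested by moderated tests, two-sided, with eBayes and Benjamini-Hochberg adjustment over all tested genes at 0.05, on 21 residual degrees of freedom for the 24-h fit. The scripts were tested on simulated data. Figures used matplotlib 3.10.9 and other steps pandas 2.3.3 and NumPy 2.4.6 in Python 3.11.15.

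Named genes were the called members (up to 8 per test and subunit) or else the 3 of smallest p, the members of highest and lowest SD, listed paralogues, and up to 4 called genes of each list or the 2 of smallest p. Members and lists were chosen with earlier results of these data known.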

Additional observations from a re-analysis of the deposited data

How the results depend on the processing

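The count of members called for a 24-h rhythm was 1 with all arrays, where 7.65% of all tested genes were called, and the share of all genes is given with each count here. It was 2 with the limit at the 50th percentile (12.4%), with a trended prior (7.95%) or with linear time in the fit (6.43%), where Rps14 joined each time, and 2 with array weights (11.2%), where Rpl9 joined. It was 0 with array background in the fit (3.81%) and 0 without CT 40, CT 62 and CT 64 (4.87%), with 7 members at an unadjusted p below 0.05 in each. Leaving out each array in turn gave 1 to 3: 3 without CT 26 (Rps14, Rps19; 10.3%) or CT 30 (Rps12, Rps3a1; 10.3%), and 2 without CT 38 (Rps3a1; 5.97%) or CT 44 (Rps14; 8.28%). Rps27l was called in each of these 24 fits, with adjusted p from 0.000548 to 0.0257. The counts for a change between cycles, a change of the rhythm and a 12-h rhythm were 0 under every alternative run, and leaving out each array gave 0 to 0. The 12 circadian times as a block, which pairs the arrays of the 2 cycles, also gave 0 for the change between cycles. Of the 22 members lower at CT 40, quantile normalization left a count of 14, and it raised the count higher by more than 0.5 from 0 to 2; at a difference of more than 1 there were 6. The alternatives for CT 40, and the centring of the subunit means without it, were chosen after seeing the data. The cause of these shifts was not tested. With 1 array per time there is no measure of spread at a single time, and low signal limits Rpl12 and Rps23rg1, the members nearest the limit on low values.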

Other observations

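The mitochondrial ribosome is built from a separate set of nuclear genes, and 77 of these were tested. For a 24-h rhythm, 3 of the 77 were called by limma, where 7.65% of all tested genes were: Mrpl41 (amplitude 0.11 ± 0.02, peak 20.7 h, adjusted p = 0.0155), Mrps26 (0.12 ± 0.03, 10.3 h, adjusted p = 0.0470) and Mrps18a (0.18 ± 0.05, 1.31 h, adjusted p = 0.0490), all of which encode structural proteins of that ribosome. Their peaks lie at different times of the cycle. Without CT 40 there were 5 called (7.89% of all tested genes). At an unadjusted p below 0.05 there were 17 (27.5% of all tested genes), and the median amplitude over 24 arrays was 0.06, the same as in the cytosolic set. Without CT 40 the median amplitude was 0.05, against 0.04 in the cytosolic set. At CT 40, 17 of the 77 were lower by more than 0.5, against 11.8% of all tested genes, and the median difference was -0.20. In the other 3 tests 0 were called.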
